A study of Mus musculus with 10 samples.

Results

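The replication-dependent histone genes are the members described here. They were taken as all genes of the expression table whose symbol begins with Hist1h, Hist2h, Hist3h or Hist4h, which gave 70 genes of 34591, and their measured values played no part in the choice. By the histone they encode, 6 were H1, 20 were H2A, 19 were H2B, 12 were H3 and 13 were H4, with 3 of the 70 annotated as pseudogenes. By cluster, 56 belonged to Hist1 on chromosome 13, 10 to Hist2 on chromosome 3, 3 to Hist3 on chromosome 11 and 1 to Hist4 on chromosome 6.

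H2A, H2B, H3 and H4 form the protein core around which DNA is wrapped, and H1 binds the linker DNA between cores. Most of their mRNA is made while DNA is being replicated, when new chromatin has to be packed. These mRNAs lack introns and end in a conserved stem-loop instead of a poly(A) tail. The stem-loop is bound by SLBP, the stem-loop binding protein, which acts in 3′ end cleavage, translation and decay of these transcripts. Libraries made from total RNA, as here, hold such transcripts, whereas libraries selected for poly(A) lose most of them.

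The samples were male mouse embryonic stem cells (mESCs) of the C57/BL6 line Bruce-4, grown in naive 2iL medium, which holds LIF and inhibitors of the kinases GSK3β and MEK. The study asked how transcription changed without MiDAC, a histone deacetylase complex of HDAC1 or HDAC2 with DNTTIP1 and ELMSAN1. Dnttip1 KO cells came from the clones D2A7 and D1E6, Elmsan1 KO cells from E2E8 and E2G7, and WT cells served as the control. Every one of these 5 lines gave 2 libraries, 10 in all. Each KO clone was derived by CRISPR from a single cell, so a clone's own history and the knockout cannot be told apart within 1 clone. The edits were small insertions or deletions, which can leave RNA of the targeted gene in place. The study calls its replicates biological, but the sources used here do not say whether the libraries of a line came from separate cultures, and the p-values measure only the spread between these libraries and clones.

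The values were FPKM, fragments per kilobase of exon scaled to the library's mapped fragments. From 30182379 to 84291843 fragments per library lay on genes, fewer in each WT library than in any KO library. Dnttip1 stood at 8.45 and 8.35 FPKM in WT, 4.57 and 4.55 in D2A7 and 2.58 and 2.60 in D1E6. Elmsan1, listed under the symbol C130039O16Rik, stood at 5.73 and 5.34 FPKM in WT and between 4.62 and 5.13 in the 4 Elmsan1 KO libraries. Its log2 fold change there was -0.19 (adjusted p = 0.188 by limma), so its RNA level does not by itself check the Elmsan1 labels. The sums of 8 pluripotency markers were 2690 to 3490 FPKM over all libraries, while 6 of 6 fibroblast and 6 of 6 primitive endoderm markers stayed under 1 FPKM in every library. AY036118, an rRNA-derived transcript, was at 35677 and 2400 FPKM in WT and between 9.48 and 120 in the KO libraries, and its part in the fold changes was not tested.

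A stem-loop was found in 65 of the 70 members, of which 64 had no mismatch to the search pattern. The sequences below are shown because the stem-loop is the feature described above and because these genes carry the results that follow. A match in the genome does not show that a gene's RNA is made with DNA replication, which was not measured here. They are the transcribed strand of NCBIM37, 5′ to 3′, with the 16-base stem-loop in capitals and 5 bases on either side.
Hist1h1a: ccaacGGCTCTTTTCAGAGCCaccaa
Hist1h1t: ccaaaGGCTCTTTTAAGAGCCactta
Hist1h2bp: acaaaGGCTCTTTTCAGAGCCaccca
Hist1h4d: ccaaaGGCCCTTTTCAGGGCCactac
Hist1h4i: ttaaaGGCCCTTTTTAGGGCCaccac
Hist3h2ba: ccaaaGGCTCTTTTCAGAGCCacctt
Hist3h2bb-ps: tcaaaGGCTCTTTTCAGAGCCaccca
Hist3h2a: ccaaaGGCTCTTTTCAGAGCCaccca
Hist4h4: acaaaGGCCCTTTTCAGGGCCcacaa
The core printed for Hist1h1a was the most frequent, with 40 members, and 9 members carried the core of Hist1h1t. The core of Hist1h4d and Hist4h4 was found in 8 members, all of them H4 genes. No stem-loop was found for Hist1h2aj, Hist1h2al, Hist2h2bb, Hist2h2be and Hist2h3c2, which says only that the pattern was not in the window searched. In 20 members the stem-loop lay outside the annotated exon, so that fragments from the transcript's end would not be counted there.

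Hist3h2bb-ps and Hist3h2a are divergent neighbours, and the region between their starts is shown because both genes fell in Dnttip1 KO. It spans 172 bases at chr11:58768015-58768186 (NCBIM37, + strand), with the octamer in capitals.
Hist3h2bb-ps to Hist3h2a: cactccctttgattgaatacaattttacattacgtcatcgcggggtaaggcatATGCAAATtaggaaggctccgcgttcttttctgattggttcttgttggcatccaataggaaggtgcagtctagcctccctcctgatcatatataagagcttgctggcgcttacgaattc
The octamer ATGCAAAT is a known element of H2B promoters. It was searched on both strands in 250 bases before to 50 bases after each annotated start, and it occurred in 9 of 19 H2B promoters (47.4%), 7 of 20 H2A promoters (35%) and no H1, H3 or H4 promoter, against 1.73% of 22383 promoters. Windows of divergent neighbours overlap, so H2A and H2B partners can share a match. CCAAT on either strand was found in 6 of 6 H1, 19 of 20 H2A, 19 of 19 H2B, 11 of 12 H3 and 4 of 13 H4 promoters, against 37.9% of all. TATAAA on the transcribed strand was found in 66.7% of H1, 55% of H2A, 21.1% of H2B, 41.7% of H3 and 53.8% of H4 promoters, against 9.04% of all.

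The histone genes were among the most abundant RNAs of these cells. Their median level was 281 FPKM (mean over the 10 libraries), and 56 of 70 reached 100 FPKM, as did 2.084% of all genes in the table. Together they held 3.40% and 3.49% of all FPKM in WT and between 3.63% and 5.27% in the KO libraries. With AY036118 left out of the total, the WT shares were 3.63% and 3.5%, and WT replicate 1 was then at the level of D2A7 replicate 1 (3.63%). Hist1h4d, an H4 gene, had the highest member level at 1284 FPKM, rank 24 of all genes. Only Hist2h2aa1, Hist2h2be and Hist3h2a lay under 1 FPKM. Hist2h2aa1 was at or near 0 in all libraries and was the 1 member that could not be tested. It is identical to Hist2h2aa2 over 578 bases and shares exon with Hist2h3c1, and the part of these in its level was not tested.

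By class, the median level was 595 FPKM for H4, 382 for H3, 282 for H1, 280 for H2B and 155 for H2A. In the sum over members, H4 took 32.6 to 35.8% per library, H2B 21.7 to 23.8%, H3 17.2 to 18.6%, H2A 13.5 to 15.2% and H1 9.46 to 11.5%. These ranges did not overlap, so the 10 libraries gave the same order of the 5 classes. By cluster, the median was 329 FPKM for Hist1, 94.4 for Hist2 and 21.0 for Hist3, and the single Hist4 gene was at 550. Near-identical copies limit the levels of single genes, since 39 members matched another place in the genome at 98% identity or more over at least 100 bases. Annotated exon length limits them too, since FPKM divides by it, and it was 312 bases for Hist1h4k and 3821 for Hist1h1d. In WT replicate 1 the H2B gene Hist2h2bb had 20360 fragments and Hist1h2bb 9011, although Hist1h2bb had the higher FPKM. Ranks by level, here and below, are ranks by FPKM only.

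**Figure D1:**
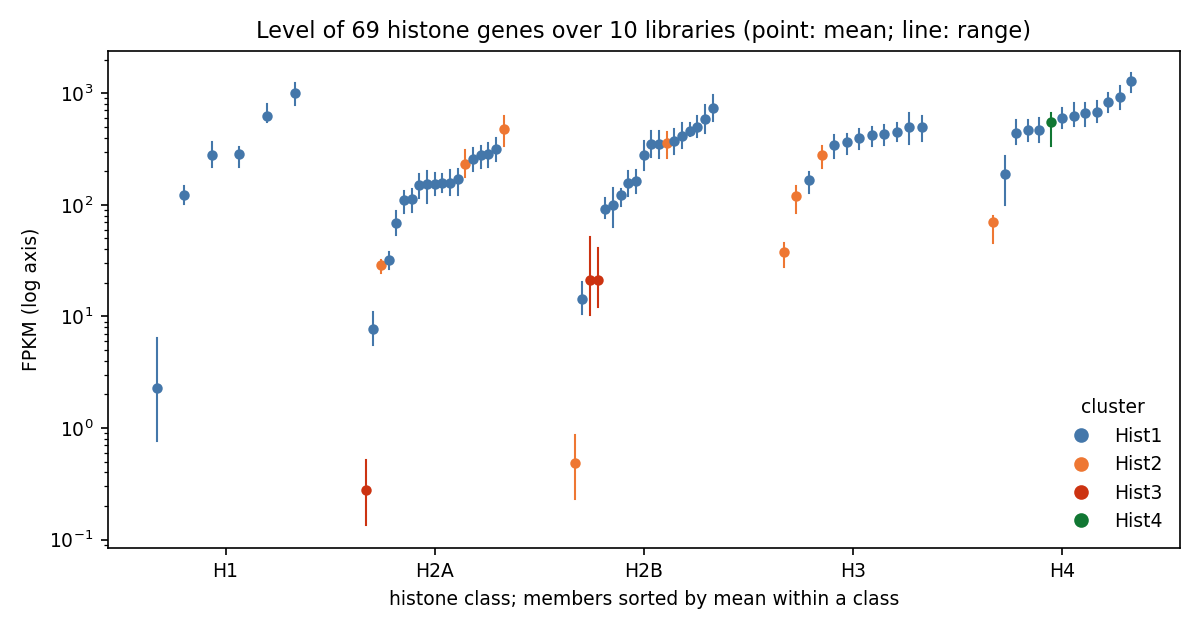
Level of 69 histone genes in FPKM on a log axis, by histone class, with a point at the mean over the 10 libraries, a line over their range and colour for the cluster. Hist2h2aa1, at or near 0, is left out, H4 has the highest class median, 595 FPKM, and the Hist3 genes have a median of 21.0 FPKM.

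Among the H1 genes, the highest were Hist1h1a and Hist1h1b, with means of 1007 and 628 FPKM. Hist1h1t, the linker histone known from testis, was at 2.29 FPKM. Hist2h2aa2 (473 FPKM) and Hist1h2ab (318) were the highest H2A genes, and Hist1h2bb (729) and Hist1h2bk (589) the highest H2B genes. Hist1h3h (495) and Hist1h3e (493) led H3, and Hist1h4d (1284) and Hist1h4h (933) led H4. Hist1h2aa and Hist1h2ba, which encode the testis H2A and H2B, were expressed at 5.55 to 10.9 and 10.5 to 20.4 FPKM.

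In the fit over both Dnttip1 KO clones, the genes of Hist3 fell, the genes of Hist2 had lower fitted levels and most genes of Hist1 had slightly higher ones. A call was a fold change of at least 1.5 with an unadjusted p under 0.01, on log2(FPKM + 0.1), which understates changes of low genes. Of 69 members tested, 4 were called lower, where 3.25% of 17434 genes were, and 1 higher, where 3.26% were. The called members were Hist3h2ba, Hist3h2bb-ps, Hist3h2a and Hist1h1t (lower) and Hist1h4i (higher). At an adjusted p under 0.05, 4 members were lower and 2 higher (4.28% and 5.19% of all genes). Those counts were 2 and 0 with an estimated correlation within clones and 1 and 0 without either WT library. The members' median log2 fold change was 0.12 against 0.02 over all genes tested, and the members' median was 0.03 without WT replicate 2 and 0.19 without WT replicate 1. In RNA from bulk culture, fewer cells that express a gene and less of its RNA per cell cannot be told apart.

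Hist3h2ba, an H2B gene at chr11:58762413-58763032, stood at 51.3 and 50.0 FPKM in WT, 10.3 and 11.0 in D2A7, 11.1 and 10.4 in D1E6, 19.8 and 20.2 in E2E8 and 11.4 and 14.4 in E2G7. All 8 KO libraries lay far below both WT libraries, and E2E8 was the least reduced clone. Its mean fell from 50.7 ± 0.896 FPKM (SD, n = 2) to 10.7 ± 0.443 (SD, n = 4) in Dnttip1 KO, a log2 fold change of -2.23 (SE 0.0562, adjusted p = 0.000205 by limma). In Elmsan1 KO the mean was 16.4 ± 4.28 FPKM (SD, n = 4), a log2 fold change of -1.66 (SE 0.238, adjusted p = 0.0121 by limma). The call held in all 18 alternative settings for both knockouts, and the adjusted p reached at most 0.0222 in Dnttip1 KO and 0.118 in Elmsan1 KO.

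Hist3h2bb-ps, annotated as an H2B pseudogene at chr11:58767550-58768014, was at 39.6 and 41.0 FPKM in WT, 13.3 and 12.2 in D2A7, 14.9 and 13.4 in D1E6, 24.1 and 24.7 in E2E8 and 14.5 and 16.6 in E2G7. The KO and WT libraries did not overlap. The log2 fold change was -1.58 in Dnttip1 KO (SE 0.0818, adjusted p = 0.00241 by limma) and -1.05 in Elmsan1 KO (SE 0.234, adjusted p = 0.0401 by limma). The Elmsan1 call was lost when either WT library was left out, with adjusted p up to 0.216 over the alternatives.

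Hist3h2a, an H2A gene at chr11:58768187-58770176, was at 0.519 and 0.459 FPKM in WT, 0.226 and 0.141 in D2A7, 0.135 and 0.151 in D1E6, 0.416 and 0.408 in E2E8 and 0.156 and 0.186 in E2G7. The WT libraries were the highest and E2E8 lay close below them. Its log2 fold change was -1.17 in Dnttip1 KO (SE 0.207, adjusted p = 0.0254 by limma) and -0.66 in Elmsan1 KO (SE 0.353, adjusted p = 0.278 by limma). The gene shares 708 exon bases on the same strand with Trim17, and the Dnttip1 call was lost with a pseudocount of 1, with a correlation within clones and without WT replicate 1, with adjusted p up to 0.313.

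Hist1h1t, at chr13:23787680-23788588, was the called H1 gene. It was at 6.12 and 6.44 FPKM in WT, 1.79 and 1.53 in D2A7, 0.772 and 1.06 in D1E6, 1.69 and 1.77 in E2E8 and 0.847 and 0.890 in E2G7. Both WT libraries lay above all KO libraries, and within each knockout one clone was lower than the other. The mean fell 4.80-fold in Dnttip1 KO (log2 fold change -2.26, SE 0.314, adjusted p = 0.0134 by limma) and 4.79-fold in Elmsan1 KO (log2 fold change -2.26, SE 0.329, adjusted p = 0.0125 by limma). The call held in all 18 alternatives of each comparison, with adjusted p up to 0.125 and 0.117. Of 7 germ cell and testis markers, 4 were under 1 FPKM in every library. The summed level of the 7 was 8.60 to 8.95 FPKM in WT, 6.43 to 13.3 in Dnttip1 KO and 6.71 to 8.44 in Elmsan1 KO, and its part in the Hist1h1t result was not tested. Dazl, a germ cell RNA-binding protein gene, was the marker called lower in Elmsan1 KO (log2 fold change -0.63, adjusted p = 0.0139 by limma).

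Hist1h4i, an H4 gene at chr13:22132685-22133221, rose in both knockouts. It was at 98.6 and 103 FPKM in WT, 162 and 165 in D2A7, 220 and 187 in D1E6, 261 and 275 in E2E8 and 192 and 241 in E2G7. All 8 KO libraries lay above WT. The mean was 1.81-fold higher in Dnttip1 KO (log2 fold change 0.85, SE 0.130, adjusted p = 0.0171 by limma) and 2.38-fold higher in Elmsan1 KO (log2 fold change 1.25, SE 0.142, adjusted p = 0.00669 by limma), and both calls held in all 18 alternatives, with adjusted p up to 0.152 and 0.11.

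Hist1h2bp, an H2B gene at chr13:21879330-21881082, was at 63.4 and 62.9 FPKM in WT, 83.8 and 82.6 in D2A7, 116 and 92.9 in D1E6, 133 and 142 in E2E8 and 103 and 123 in E2G7. It was called higher in Elmsan1 KO, by 0.98 on the log2 scale (SE 0.126, adjusted p = 0.00905 by limma). In Dnttip1 KO its log2 fold change was 0.56 (SE 0.142, adjusted p = 0.063 by limma), under the fold threshold, and it was called there without either D2A7 library. The same WT libraries serve both knockouts, so the 2 comparisons are not independent.

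**Figure D2:**
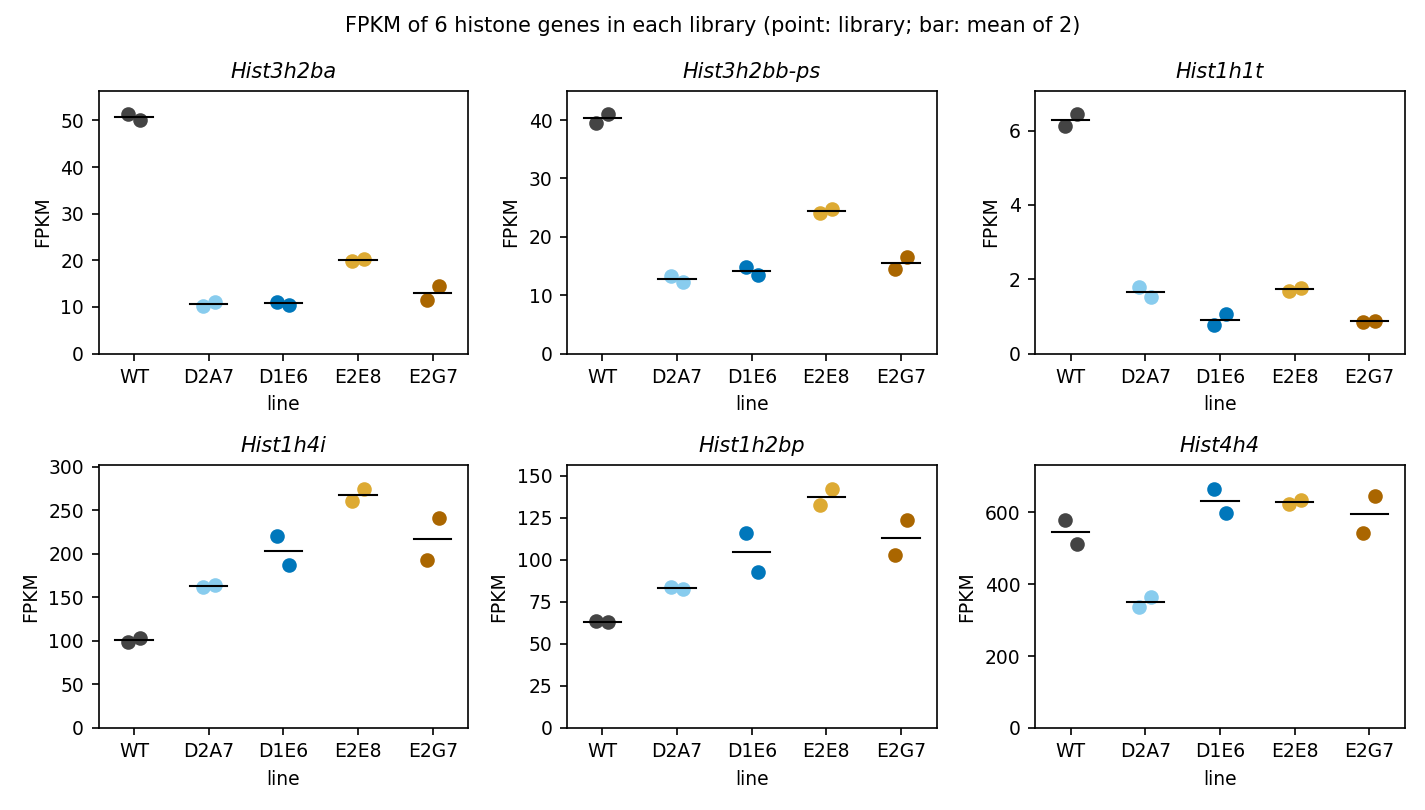
Level in FPKM (linear axis from 0) of 6 histone genes in each library, with a bar at the mean of the 2 libraries of each line. Hist3h2ba, Hist3h2bb-ps and Hist1h1t are lower in all 8 KO libraries than in WT, Hist1h4i and Hist1h2bp are higher in all 8, and Hist4h4 is low in clone D2A7.

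The remaining H1 genes moved less in Dnttip1 KO. Hist1h1c, a somatic linker histone, was higher by 0.34 on the log2 scale (adjusted p = 0.0306 by limma) and so passed the adjusted threshold but not the fold threshold. Hist1h1a was at 819 and 783 FPKM in WT and between 928 and 1126 in the 4 Dnttip1 KO libraries, without overlap, with a log2 fold change of 0.34 (adjusted p = 0.0956 by limma). Hist1h1b had a log2 fold change of 0.12 (adjusted p = 0.519 by limma). Hist1h1e went the other way, with a log2 fold change of -0.37 (adjusted p = 0.0771 by limma). Hist1h1c and Hist1h1e were chosen for mention after their values were seen.

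Of the core histone genes in Dnttip1 KO, none of the 12 H3 genes was called by limma or voom (0 also at an unadjusted p under 0.05 by limma) and 9 of 12 had a log2 fold change above 0. The median log2 fold change was 0.15 for H2A, 0.07 for H2B, 0.14 for H3 and 0.14 for H4. The most abundant core histone genes of Hist1 had small log2 fold changes, namely Hist1h4d (0.07, SE 0.139), Hist1h4h (0.14, SE 0.163), Hist1h2bb (0.12, SE 0.123), Hist1h2bk (0.09, SE 0.168), Hist1h3h (0.23, SE 0.149), Hist1h3e (0.26, SE 0.150) and Hist1h2ab (0.15, SE 0.141). All 7 overlapped WT. Without overlap were 9 members lower and 8 higher, which is 17 of 69, while 20.8% and 21.1% of all genes were lower and higher without overlap.

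In the fit over both Dnttip1 KO clones, the clusters differed in direction. There 50 of 56 Hist1 genes had a log2 fold change above 0 (median 0.15), where 9340 of 17434 genes tested did. The 9 tested Hist2 genes all lay below 0 (median -0.36). By clone, 23 of 56 Hist1 genes lay above WT in D2A7 (median -0.03) and 52 of 56 in D1E6 (median 0.32). The rise of Hist1 was thus seen in D1E6 and not in D2A7. No Hist2 gene was called or passed the adjusted threshold by limma or voom, and 3 were at an unadjusted p under 0.05 by limma. Hist2h2ac, an H2A gene chosen after its values were seen, was at 310 and 258 FPKM in WT, 180 and 176 in D2A7, 249 and 226 in D1E6, 207 and 227 in E2E8 and 216 and 254 in E2G7. All KO libraries lay below both WT libraries, with log2 fold changes of -0.46 (adjusted p = 0.143 by limma) and -0.33 (adjusted p = 0.109 by limma). Hist2h2aa2, the highest H2A gene, was at 588 and 444 FPKM in WT, 335 and 350 in D2A7, 486 and 443 in D1E6, 520 and 621 in E2E8 and 426 and 513 in E2G7, so D2A7 lay below WT and the other clones overlapped it.

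Summed over the cluster, Hist2 stood at 1977 and 1661 FPKM in WT, 1185 and 1200 in D2A7, 1698 and 1562 in D1E6, 1591 and 1742 in E2E8 and 1516 and 1796 in E2G7. As a share of the Hist1 sum, which removes changes common to both clusters, Hist2 was at 11.0% and 10.1% in WT. The share was 7.07% and 7.03% in D2A7, 7.67% and 7.71% in D1E6, 7.22% and 7.34% in E2E8 and 7.35% and 7.28% in E2G7. All 8 KO libraries lay below both WT libraries on this share, although only the D2A7 libraries and 1 library each of the other clones lay under both WT libraries in the Hist2 sum itself. The Hist3 sum was 91.4 FPKM in both WT libraries and 23.4 to 45.4 FPKM in the KO libraries.

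**Figure D3:**
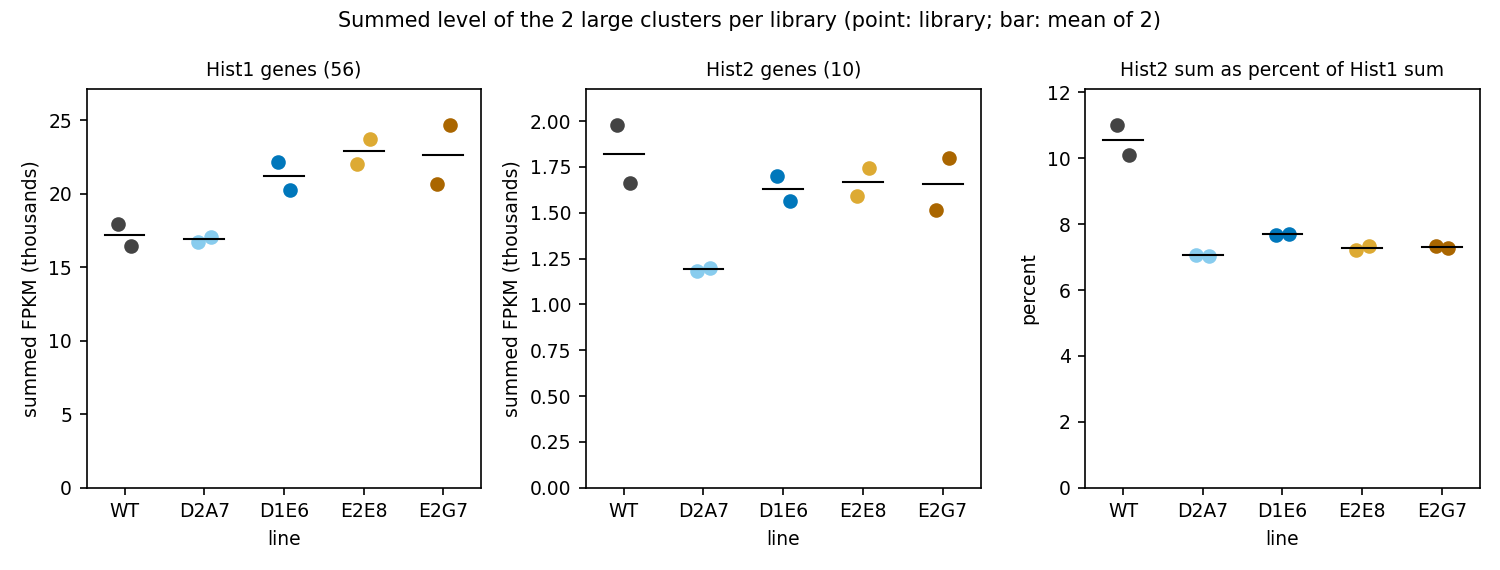
Summed FPKM of the 56 Hist1 and the 10 Hist2 genes and the Hist2 sum as a percent of the Hist1 sum, in each library (linear axes from 0), with a bar at the mean of the 2 libraries of a line. Hist1 is lowest in WT and D2A7, Hist2 is lowest in D2A7, and the percent falls from 11.0 and 10.1 in WT to between 7.03 and 7.71 in the KO libraries.

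In Elmsan1 KO, most Hist1 genes had higher fitted levels and the Hist3 genes lower ones, while the Hist2 median lay near that of all genes. Of 69 members, 3 were called lower (3.68% of 17212 genes were) and 2 higher (2.74% were). The members lower were Hist3h2ba, Hist3h2bb-ps and Hist1h1t, and those higher were Hist1h4i and Hist1h2bp. At an adjusted p under 0.05, 3 were lower and 23 higher (4.91% and 5.62% of all genes), and all 23 lay in Hist1. Both counts were 0 with an estimated correlation within clones, and both were 0 without either WT library. The members' median log2 fold change was 0.40, against 0.00304 over all genes. Without overlap, 47 members were higher and 6 lower, where 21.3% and 21.8% of all genes were.

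The 23 members that were higher at the adjusted threshold comprised 3 H1, 5 H2A, 6 H2B, 1 H3 and 8 H4 genes. Without E2G7 replicate 1, 26 members were higher at this threshold. The median itself stayed between 0.30 and 0.44 when any 1 library was left out.

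By class in Elmsan1 KO, Hist1h1a rose by 0.46 on the log2 scale (adjusted p = 0.0335 by limma) and Hist1h1c by 0.56 (adjusted p = 0.0391 by limma), while Hist1h1b had a log2 fold change of 0.26 (adjusted p = 0.224 by limma). Among the 15 H2A genes of Hist1 the median was 0.43, and Hist1h2ab rose by 0.48 (adjusted p = 0.035 by limma). Among the 15 H2B genes of Hist1 the median was 0.43, and Hist1h2bk rose by 0.56 (adjusted p = 0.0202 by limma), with Hist1h2bb at 0.51 (adjusted p = 0.052 by limma). The 9 H3 genes of Hist1 had a median of 0.37, with Hist1h3h at 0.41 (adjusted p = 0.0794 by limma) and Hist1h3e at 0.58 (adjusted p = 0.0536 by limma). All 11 H4 genes of Hist1 were higher in every Elmsan1 KO library than in either WT library, with a median of 0.46. Of the most abundant H4 genes, Hist1h4d was at 1219 and 1094 FPKM in WT and 1385, 1491, 1270 and 1504 in Elmsan1 KO, a log2 fold change of 0.29 (adjusted p = 0.135 by limma), and Hist1h4h reached 0.46 (adjusted p = 0.0533 by limma).

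In Hist2, 7 of 9 tested genes had a log2 fold change below 0 in Elmsan1 KO, with a median of -0.07, and none was called or passed the adjusted threshold by limma or voom (2 at an unadjusted p under 0.05 by limma). Hist2h2bb, an H2B gene without a stem-loop found and chosen after its values were seen, was at 449 and 411 FPKM in WT and between 322 and 401 in Elmsan1 KO, without overlap (log2 fold change -0.27, adjusted p = 0.169 by limma). The log2 change of the cluster's summed FPKM was -0.13, and it moved to -0.00261 without WT replicate 1 and to -0.25 without WT replicate 2. The testis H2A and H2B genes Hist1h2aa and Hist1h2ba had log2 fold changes of 0.51 (adjusted p = 0.174 by limma) and 0.43 (adjusted p = 0.133 by limma).

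The sums of the members show the same in linear units. All members together gave 20601 and 18741 FPKM in WT, 18292 and 18666 in D2A7, 24540 and 22443 in D1E6, 24293 and 26150 in E2E8 and 22719 and 27132 in E2G7. The D2A7 libraries lay below both WT libraries, and the libraries of the other 3 clones lay above both. As a log2 difference from WT, the sum differed by 0.08 in Dnttip1 KO and 0.35 in Elmsan1 KO. The Dnttip1 value was 0.00482 without D1E6 replicate 1 and 0.15 without WT replicate 1. By class the Elmsan1 difference ran from 0.28 for H2A to 0.41 for H4, while the Dnttip1 difference ran from -0.00129 for H2B to 0.17 for H1. With only members that lack a near-identical copy, the H2A difference in Elmsan1 KO was 0.06 and not 0.28. The H2A genes left were Hist1h2aa, Hist1h2ak, Hist2h2ab, Hist2h2ac and Hist3h2a. Of these, Hist1h2ak had a log2 fold change of 0.43 and Hist2h2ac of -0.33. The subset thus holds another mix of clusters, and the parts of copies and clusters in this value cannot be told apart.

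The knockouts were compared directly, since D2A7 and D1E6 differ. By limma no member was called (1.11% and 0.415% of 17588 genes were called higher and lower in Dnttip1 KO), while 31 of 69 were at an unadjusted p under 0.05 and 0 were called by voom. The median log2 difference, Dnttip1 KO minus Elmsan1 KO, was -0.27, against 0.01 over all genes. The difference lay below 0 in 69 of 69 members, where it did in 8464 of 17588 genes. Members are not independent observations, since 38 of those tested have near-identical copies. D2A7 had the lowest median difference from WT (-0.06, against 0.29 in D1E6, 0.37 in E2E8 and 0.39 in E2G7), so the contrast also holds the difference between the Dnttip1 KO clones. Without overlap, 3 members were lower (4.05% of all genes were). Leaving out E2G7 replicate 1 gave 2 called members, Hist3h2ba and Hist3h2bb-ps.

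The clones of Dnttip1 KO differed across the histone genes. The median log2 difference from WT was -0.06 in D2A7 (23 of 69 members above WT) and 0.29 in D1E6 (55 of 69), and it was 0.37 in E2E8 and 0.39 in E2G7 (56 of 69 each). For Hist1 the 4 medians were -0.03, 0.32, 0.42 and 0.41, and for Hist2 they were -0.58, -0.13, -0.11 and -0.12. All 9 tested Hist2 genes lay below WT in D2A7. The libraries of a line also differed in level, with a median log2 difference of replicate 2 minus replicate 1 of -0.17 in WT, -0.01 in D2A7, -0.12 in D1E6, 0.11 in E2E8 and 0.26 in E2G7. In E2G7, 68 of 69 members were higher in replicate 2. This shift of 0.26 was the largest between libraries of a line, and it was smaller than the median differences of D1E6, E2E8 and E2G7 from WT.

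**Figure D4:**
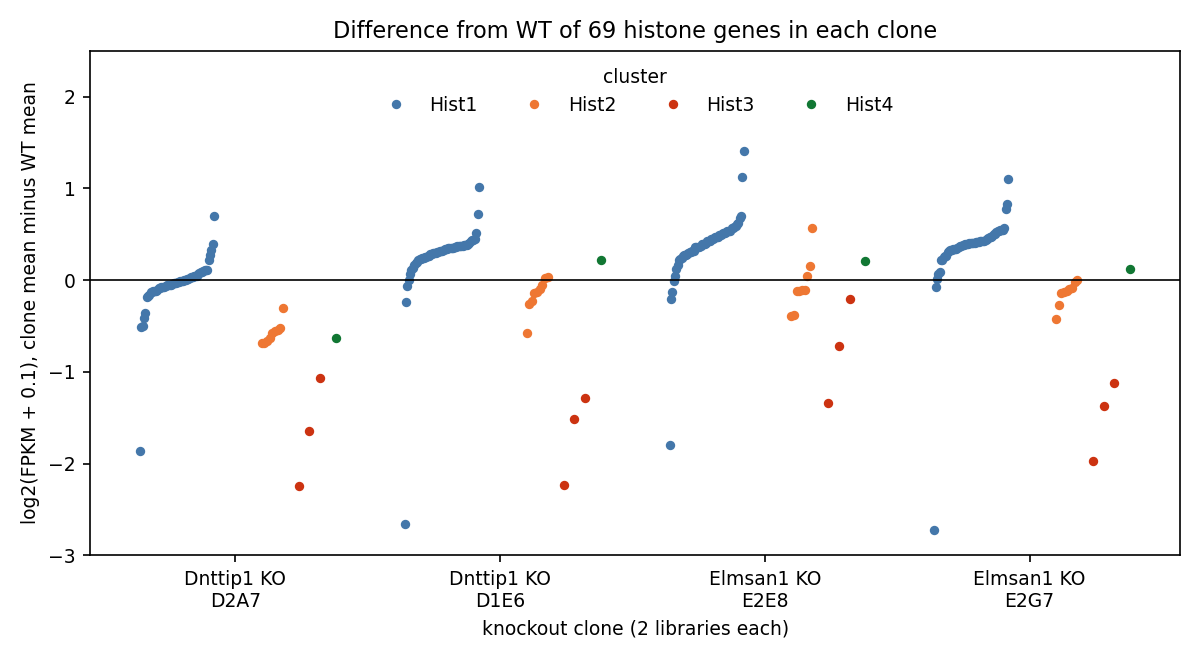
Difference of each clone's mean from the WT mean on the log2(FPKM + 0.1) scale for the 69 tested histone genes, ordered within a cluster, with colour for the cluster. Hist1 genes lie around 0 in D2A7 and mostly above 0 in the other 3 clones, Hist2 genes lie below 0 in D2A7, and the 3 Hist3 genes lie below 0 in all 4 clones.

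Between D2A7 and D1E6, 67 of 69 members were lower in D2A7 (median log2 difference -0.33), and 53 were lower at an adjusted p under 0.05, where 17.4% of 16991 genes were, and 1 was higher (23.3%). By the call rule, 2 members were lower in D2A7 (3.73% of all genes) and 1 higher (9.2%). Hist4h4, the H4 gene of Hist4 at chr6:136752589-136752900, was at 578 and 512 FPKM in WT, 337 and 364 in D2A7, 666 and 600 in D1E6, 624 and 634 in E2E8 and 544 and 645 in E2G7. D2A7 lay below all other lines, and the difference D2A7 minus D1E6 was -0.85 (SE 0.0707, adjusted p = 0.00156 by limma), called in all 15 alternatives. Against WT it was called in neither knockout (log2 fold change -0.21, adjusted p = 0.699, and 0.17, adjusted p = 0.314, by limma). The median log2 difference from WT over 541 genes of chromosome 6 was -0.08 in D2A7, 0.42 in D1E6, 0.39 in E2E8 and 0.29 in E2G7, while over all 12148 genes compared the clones had medians between -0.00465 and 0.00422. The part of this chromosome-wide shift in the Hist4h4 values was not tested. The medians over 425 genes of chromosome 13, which holds Hist1, lay between -0.01 and 0.0000744.

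Hist2h3c2, annotated as an H3 pseudogene, was the other member lower in D2A7, with 140 and 118 FPKM in WT, 85.1 and 89.0 in D2A7, 137 and 126 in D1E6, 113 and 124 in E2E8 and 112 and 147 in E2G7. Its difference D2A7 minus D1E6 was -0.59 (adjusted p = 0.00203 by limma), and the call was lost in 3 of 15 alternatives (quantile normalization, without D2A7 replicate 1 and without D1E6 replicate 1, adjusted p up to 0.0139). Hist1h1t was higher in D2A7 by 0.80 (adjusted p = 0.0223 by limma), and that call was lost in 8 of 15 alternatives, among them the fits without either D2A7 library and without D1E6 replicate 1 (adjusted p up to 0.0896).

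Between E2E8 and E2G7 the median log2 difference of the histone genes was 0.03, and it was -0.10 without E2G7 replicate 1 and 0.17 without E2G7 replicate 2. Higher in E2E8 were 5 members (10.5% of 16723 genes were), namely Hist1h1t (0.92), Hist3h2ba (0.64), Hist3h2bb-ps (0.65), Hist3h2a (0.92) and Hist2h2be (0.99), with adjusted p by limma of 0.00159 to 0.0093. No member was called lower by limma or voom (3.27% of all genes were by limma), and at an adjusted p under 0.05 4 members were lower (21.4% of all genes) and 5 higher (29.3%). All 3 Hist3 genes and Hist1h1t, which were lower in Elmsan1 KO than in WT by the mean, were thus less reduced in E2E8 than in E2G7. With a mean of at least 1 FPKM required, 3 members were called higher. The call of Hist3h2ba was lost in 4 of 15 alternatives (without a variance trend, without either E2E8 library and without E2G7 replicate 1, adjusted p up to 0.0382), and that of Hist3h2a in 4 of 14. Hist2h2be, an H2B gene with a mean of 0.488 FPKM, was named after its values were seen.

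The divergent arrangement of H2A and H2B genes, which share the DNA between their starts, was found for 14 pairs, with -88 to 305 bases between the annotated starts. In each knockout both genes of 12 of 14 pairs had the same sign, with a median difference within a pair of 0.15 in Dnttip1 KO and 0.12 in Elmsan1 KO. Most pairs lay in Hist1, where 50 of 56 genes in Dnttip1 KO and 53 of 56 in Elmsan1 KO were above 0. Equal signs are therefore common there for unpaired genes too, and the part of pairing was not tested. The pair Hist3h2bb-ps and Hist3h2a, whose shared region is printed above, had log2 fold changes of -1.58 and -1.17 in Dnttip1 KO. The largest difference within a pair in Elmsan1 KO was that of Hist1h2bp, at 0.98, and its partner Hist1h2an, at 0.33, a gene named after its values were seen.

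The genes around each cluster were compared with the members, using all other genes within 500 kb with a mean of at least 1 FPKM. This window and the genes named from it were chosen after the members' values were seen. The other genes were set apart by symbol only, so histone genes with other symbols can be among them, as H2afj is around Hist4. Around the first block of Hist1 (24 members, chr13:21807632-22135545), 10 other genes had median log2 fold changes of 0.33 in Dnttip1 KO and 0.37 in Elmsan1 KO, with 9 of 10 above 0 in each. Around the second block (31 members, chr13:23622919-24026720), 5 other genes had medians of 0.29 and 0.39, with 5 of 5 above 0. Prss16, a serine protease gene, was called higher in Dnttip1 KO (log2 fold change 0.60, adjusted p = 0.0473 by limma), and the zinc finger genes Zfp184 (0.63, adjusted p = 0.00833) and Zfp192 (0.62, adjusted p = 0.0261) were called higher in Elmsan1 KO by limma. In the fits over both clones of a knockout, most of the other genes around Hist1 thus also had log2 fold changes above 0. The Hist1 members had medians of -0.03 in D2A7 and 0.32 in D1E6, and whether the other genes differed likewise by clone was not tested.

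Around Hist2 (10 members, chr3:96023839-96082924), 23 other genes had medians of -0.05 and -0.10. Ankrd35 was called lower in both knockouts (log2 fold changes -1.30, adjusted p = 0.0295, and -1.86, adjusted p = 0.00102, by limma). In Elmsan1 KO Lix1l was called lower (-0.78, adjusted p = 0.0668 by limma) and Txnip higher (0.63, adjusted p = 0.0682 by limma). Around Hist4, 4 other genes had medians of 0.22 and 0.45, and Wbp11 passed the adjusted but not the fold threshold in Elmsan1 KO (0.41, adjusted p = 0.00669 by limma), as did Plbd1 (0.57, adjusted p = 0.0423 by limma). Around Hist3, 14 other genes had medians of 0.0046 and -0.09, and 1 was called. That gene was Gm12260, annotated as a pseudogene, at 9.22 kb from the middle of the cluster. Its sequence was not examined, so whether it is a further histone gene is not known here. Gm12260 was at 25.2 and 22.2 FPKM in WT, 5.71 and 7.63 in D2A7, 7.18 and 6.74 in D1E6, 6.90 and 7.58 in E2E8 and 6.77 and 9.31 in E2G7. It was lower in all KO libraries, with log2 fold changes of -1.79 (adjusted p = 0.00324 by limma) and -1.63 (adjusted p = 0.00325 by limma). Rnf187 had log2 fold changes of -0.34 (adjusted p = 0.0164 by limma) and -0.28 (adjusted p = 0.0395 by limma), under the fold threshold.

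**Figure D5:**
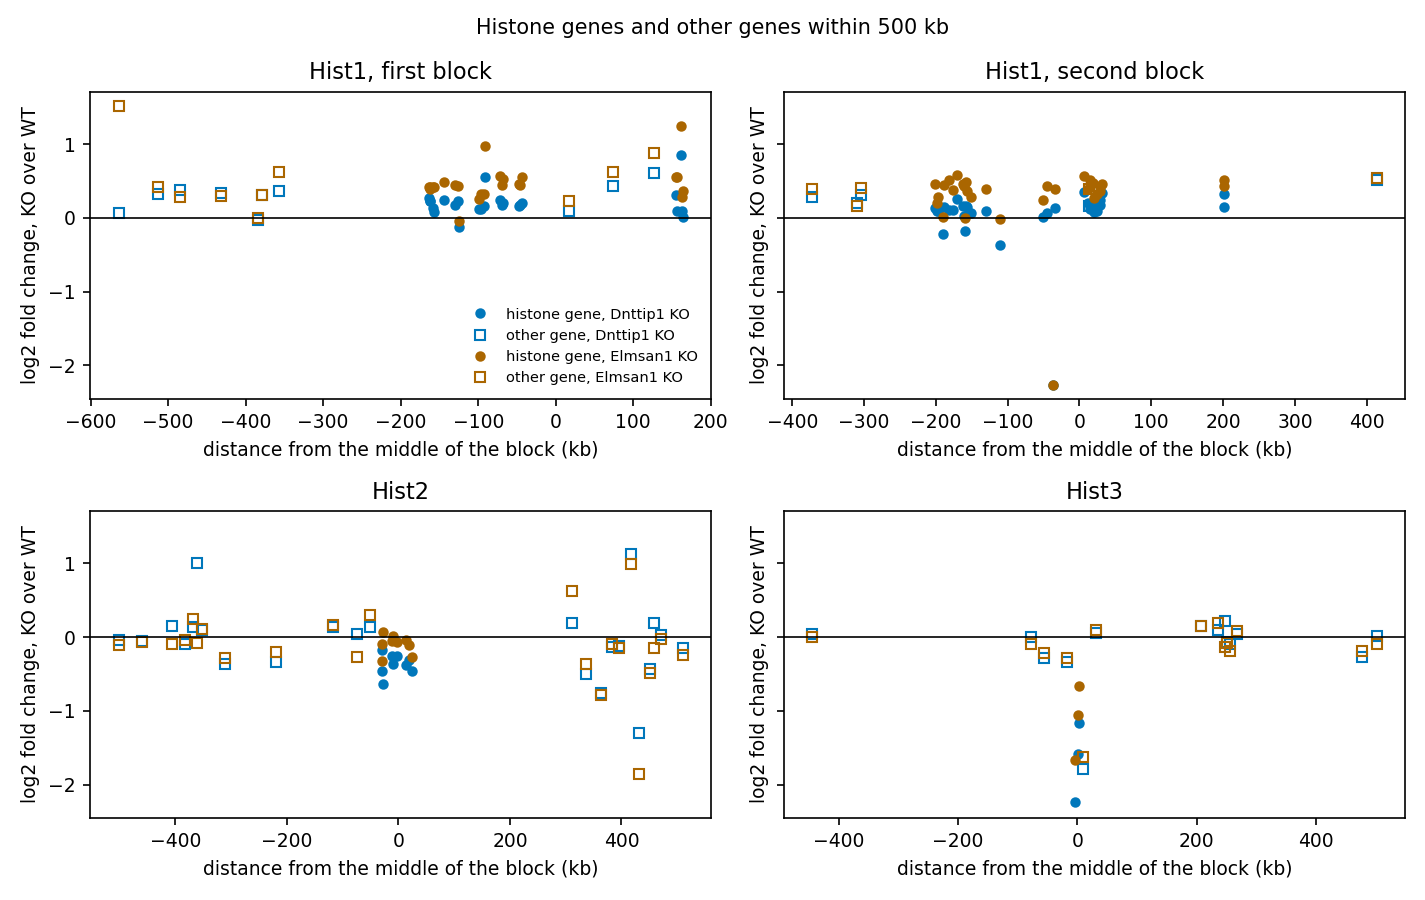
log2 fold change (y axis) of histone genes (filled) and of other genes within 500 kb (open squares) by distance in kb from the middle of the Hist1 blocks, Hist2 and Hist3, for Dnttip1 KO (blue) and Elmsan1 KO (brown) against WT. In these fits over both clones, the other genes around Hist1 lie mostly above 0, as the members do. Around Hist3 the 3 members and Gm12260 lie below the other genes, with Hist3h2a in Elmsan1 KO (-0.66) the closest to them.

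Genes that make and remove histone mRNA were compared as a list. Of 18 genes of histone mRNA processing and turnover, 0 were called in Dnttip1 KO by limma or voom (5 at an unadjusted p under 0.05 by limma). By limma, 3.25% and 3.26% of all genes were called lower and higher there. In Elmsan1 KO 0 were called lower and 1 higher, where 3.68% and 2.74% of all genes were. At an adjusted p under 0.05 by limma, 0 were higher in Dnttip1 KO and 2 in Elmsan1 KO (5.19% and 5.62% of all genes). The medians were -0.04 and -0.00121. The called gene was Upf1, a helicase of RNA decay that also acts on histone mRNA, which rose from 44.1 and 42.5 FPKM in WT to between 61.9 and 70.6 in Elmsan1 KO (log2 fold change 0.62, adjusted p = 0.00542 by limma). In Dnttip1 KO it was at 0.45 (adjusted p = 0.122 by limma). Eri1, a gene of the list named after its values were seen, was at 18.8 and 20.8 FPKM in WT and 22.1 to 27.9 over the KO libraries, and it was not called. Slbp stood at 33.1 and 33.5 FPKM in WT and at 33.8 to 40.6 over the KO libraries (log2 fold changes 0.15 and 0.14, neither called). Npat, the coactivator of histone transcription in S phase, had log2 fold changes of -0.06 and -0.06, and Casp8ap2, a factor of histone locus bodies, 0.05 and -0.02.

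Of 23 genes of the G1/S transition and DNA replication, 0 were called in either knockout by limma or voom. By limma 5 and 9 were at an unadjusted p under 0.05 in Dnttip1 and Elmsan1 KO. At an adjusted p under 0.05 by limma, 4 and 5 of the 23 were higher, where 5.19% and 5.62% of all genes were, and 0 were lower. The medians were -0.04 and -0.01. Cell cycle phase was not analysed here, and its part in the Hist1 levels was not tested. Of 14 histone chaperone genes, 0 were called by limma or voom (6 and 4 at an unadjusted p under 0.05 by limma), with medians of 0.06 and -0.02. Only 2 of 10 listed RNAs without a usual poly(A) tail were in the table, Malat1 and Neat1, and neither was called by limma or voom (0 at an unadjusted p under 0.05 by limma), with medians of 0.35 and -0.08.

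The replication-independent histone variants, whose mRNAs are made throughout the cell cycle, had medians of -0.09 in Dnttip1 KO and -0.10 in Elmsan1 KO over 11 genes. H2afy2, which encodes a macroH2A, was called higher in Dnttip1 KO (log2 fold change 0.75, adjusted p = 0.0288 by limma) and was at 0.61 in Elmsan1 KO (adjusted p = 0.221 by limma). H3f3b, one of the H3.3 genes, was at 217 to 224 FPKM in WT, 167 to 189 in Dnttip1 KO and 176 to 183 in Elmsan1 KO, without overlap. Its log2 fold changes were -0.31 (adjusted p = 0.0463 by limma) and -0.29 (adjusted p = 0.0168 by limma), under the fold threshold. H3f3a, which encodes the same protein, was at -0.16 (adjusted p = 0.113 by limma) and -0.23 (adjusted p = 0.054 by limma). H2afz was at -0.13 and -0.10 and H2afx at -0.08 and 0.04, and neither was called.

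Of 6 neural progenitor markers, Nes was called higher in both knockouts (log2 fold changes 1.30 and 0.80, adjusted p = 0.0178 and 0.0636 by limma) and Olig2 was called lower in Elmsan1 KO (-0.63, adjusted p = 0.0626 by limma). The sum of the 6 was 28.1 to 31.7 FPKM in WT, 26.4 to 41.8 in Dnttip1 KO and 19.9 to 28.4 in Elmsan1 KO, and 4 of the 6 were under 1 FPKM in every library. The part of these markers in the histone results was not tested.

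The members were also split by their stem-loops and copies. The 64 tested members with a stem-loop had median log2 fold changes of 0.12 and 0.40, and the 5 without had medians of -0.26 and 0.07. Of those 5, Hist2h2bb, Hist2h2be and Hist2h3c2 belong to Hist2, where all 9 tested genes lay below 0 in Dnttip1 KO. The stem-loop and the cluster cannot be told apart in this split. Members with a near-identical copy (38 tested) had medians of 0.15 and 0.40 with 0 called (by limma 0 at an unadjusted p under 0.05 in Dnttip1 KO and 27 in Elmsan1 KO, by voom 0 called in each), and those without (31 tested) had medians of 0.08 and 0.36 and held all called members. A fold change of a member with copies can mix the changes of several genes. At 95% identity 55 members had a copy, among them the called Hist3h2ba, Hist3h2bb-ps, Hist1h4i and Hist1h2bp. Hist3h2ba and Hist3h2bb-ps were each other's best match, at 96.31% and 97.21% identity. Hist1h2bp was also matched at 98% or more in the searches with Hist1h2bq and Hist1h2br. These called members can therefore share fragments with other members too, which was not tested. The stem-loop core of Hist3h2ba was that of 39 tested members, whose log2 fold changes ran from -2.23 to 0.56 in Dnttip1 KO and from -1.66 to 0.98 in Elmsan1 KO.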

How the data were processed

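RNA of 5 mESC lines, 2 libraries each, was sequenced as stranded total RNA. The authors mapped reads to NCBIM37, counted genes with HTSeq and deposited FPKM, and the aligner and instrument of each library are not given in the sources used here. The 70 members were matched to the annotation by gene ID (33606 of 34591 genes matched). For the tests, FPKM of each library was divided by its median ratio to the geometric mean over 11270 genes (factors 0.965 to 1.01), 0.1 was added, and log2 values were fitted with limma 3.58.1 with a variance trend in R 4.3.3. Genes with at least 0.1 FPKM in 2 libraries of the comparison were tested, two-sided, with Benjamini-Hochberg adjustment over all of them. Between 98.3 and 98.6% of the low FPKM values were whole multiples of 1 fragment (tolerance 0.05), so voom was run on the recovered fragments as an alternative. On simulated data, 189 to 200 of 200 genes changed 1 log2 unit were recovered. The simulation held only the spread between libraries of a line and no differences between clones. In the data the estimated correlation within clones was 0.704 for Dnttip1 KO against WT and 0.768 for Elmsan1 KO against WT. The recovery therefore does not show how the tests of the knockouts fare with such clone differences. Named members were the 2 most abundant of each class, those called against WT, the largest called clone differences, the members of Hist3 and Hist4, and the testis genes, with others said to be chosen after their values were seen. Members and lists were chosen with earlier results of these data known. Sequences were read from NCBIM37, and copies were found with BLAST 2.17.0.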

Additional observations from a re-analysis of the deposited data

Results flagged for a closer look

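In Elmsan1 KO, Hist1h2ba was at 20.4 FPKM in E2G7 replicate 2, farther from its nearest neighbour than Dixon's 95% critical value for 4 samples allows. It was the only such value in 40 groups tested, of which chance flags about 1 in 20.

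By the call rule on the limma fits, 8 differences between the clones of a knockout were called. Of 69 members, 2 were called lower and 1 higher in D2A7 than in D1E6, where 3.73% and 9.2% of all genes were. In E2E8 against E2G7, 0 were called lower and 5 higher, where 3.27% and 10.5% of all genes were. Between D2A7 and D1E6 the log2 difference was 0.80 for Hist1h1t, -0.59 for Hist2h3c2 and -0.85 for Hist4h4. Between E2E8 and E2G7 it was 0.92 for Hist1h1t, 0.99 for Hist2h2be, 0.92 for Hist3h2a, 0.64 for Hist3h2ba and 0.65 for Hist3h2bb-ps. Hist2h2be and Hist3h2a had mean levels under 1 FPKM.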

How the results depend on the processing

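For the summary results, 602 alternative values stayed close to those reported and 73 moved. Of all these, 12 changed sign, in 5 results that have no test. The Elmsan1 KO Hist2 median was 0.0176 without WT replicate 1. The E2E8 against E2G7 median was -0.041 without E2E8 replicate 2 and -0.102 without E2G7 replicate 1. In Dnttip1 KO the H3 sum was -0.0104 without WT replicate 2, the H2A sum was -0.109 without near-identical copies and as low as -0.106 without 1 library, and the H2B sum was 0.0251 with FPKM as deposited and up to 0.0871 without 1 library. In the fits that left out 1 library, the ranges were as follows. In Dnttip1 KO against WT, 1 to 2 members were called higher, 0 to 2 were higher and 1 to 4 lower at an adjusted p under 0.05, the low ends without either WT library. In Elmsan1 KO against WT, 2 to 9 were called higher (9 without E2G7 replicate 1, 8 without WT replicate 1), 0 to 26 were higher and 0 to 3 lower at the adjusted threshold. In the direct comparison 0 to 2 were called lower. For D2A7 against D1E6, 1 to 5 were called lower and 0 to 1 higher, 35 to 57 were lower and 0 to 1 higher at the adjusted threshold, and the median ran from -0.41 to -0.24. For E2E8 against E2G7, 0 to 1 were called lower and 2 to 5 higher, and 2 to 10 were lower and 5 to 13 higher at the adjusted threshold. The Hist2 sum in Elmsan1 KO ran from -0.25 to -0.00261. A lone WT library is assumed in these fits to vary like the others.

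With a correlation within clones, 2 members were lower and 0 higher at the adjusted threshold in Dnttip1 KO, and 0 lower and 0 higher in Elmsan1 KO. Without a variance trend, higher members at that threshold numbered 1 in Dnttip1 KO and 9 in Elmsan1 KO. In D2A7 against D1E6 that fit gave 0 called higher, 32 lower and 0 higher, and in E2E8 against E2G7 2 lower. With all 10 libraries in one fit, 1 and 14 were higher. Without the filter, 12 were higher in Elmsan1 KO, 0 were called higher for D2A7 against D1E6 and 2 were lower for E2E8 against E2G7. FPKM as deposited gave 4 called higher in Elmsan1 KO. Quantile normalization gave 1 called lower in the direct comparison, 1 lower and 0 higher for D2A7 against D1E6 and 8 higher at the adjusted threshold for E2E8 against E2G7. A pseudocount of 1 gave 0 called higher for D2A7 against D1E6 and 2 for E2E8 against E2G7, where a mean of at least 1 FPKM gave 3. Voom gave 9 lower and 16 higher at the adjusted threshold for E2E8 against E2G7. Without near-identical copies, the Elmsan1 KO sums were 0.0585 for H2A and -0.255 for Hist2, over subsets with another mix of genes. The causes were not tested.

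Replicate numbers of different lines had correlations of deviations between -0.139 and 0.192, so they did not pair the libraries. With the replicate block, 0 members were higher at the adjusted threshold in Dnttip1 KO and 6 in Elmsan1 KO, 0 were called higher for D2A7 against D1E6, and 7 were lower and 14 higher at that threshold for E2E8 against E2G7.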
